A study of Homo sapiens with 6 samples.

Results

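The genes described here encode the machinery of the lysosome: hydrolases with their cofactors, membrane proteins of the organelle, subunits of the vacuolar proton pump (V-ATPase), and the 3 transcription factors TFEB, TFE3 and MITF that act on such genes. They are a list of 47 gene names, cathepsins left out, drawn up with earlier results of these data known; the rule itself uses no measured value. A gene was measured if a probe set of the array is annotated with that gene's symbol and no other, and the probe set with the highest mean signal stood for it. By this rule 44 of the 47 were measured, among 19775 genes in all, and CD68, GLB1 and ATP6V1F were not. Their signals were followed in THP1, an established human acute myeloid leukaemia cell line of monocytic type, on 6 Affymetrix Human Genome U133 Plus 2.0 arrays. The untreated group has 3 samples, and the Dll4-Fc group has 3 samples grown on plates carrying Dll4-Fc, a fusion of the Notch ligand Delta-like 4 with an antibody Fc part. RNA was extracted at 48 hours in both groups, which shared the same medium. The sample labels give 60 nM Dll4-Fc and the treatment protocol gives 30 nM. The protocol calls the control vehicle, and no wells with Fc alone are named. Nothing in the labels states that the 3 samples of a group were separate cultures, and the spread behind each p-value may therefore be technical.

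Lysosomes break down proteins, lipids and glycans taken up from outside or delivered by autophagy, and macrophages, which digest what they engulf, are rich in them. The hydrolases work at acid pH, which the V-ATPase keeps up: its V1 sector hydrolyses ATP in the cytosol and its V0 sector carries protons across the membrane. TFEB, TFE3 and MITF are related leucine zipper factors that bind E-box sequences, among them the palindromic CLEAR element found upstream of many lysosomal genes. Phosphorylation by the kinase complex mTORC1 can hold these factors in the cytosol. The amount of their mRNA therefore does not tell how much factor is in the nucleus.

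Most of these genes rose with Dll4-Fc and none fell. At an adjusted p under 0.05 (limma, Benjamini-Hochberg adjustment over all 19775 genes) 30 of the 44 measured genes were higher and 0 were lower. Of all genes, 11.6% were higher and 15.0% lower. Nearly all of the 44 are bright, 43 of them above the median probe set. Among the 12747 genes above it, 16.0% were higher and 21.3% lower. At an unadjusted p under 0.05, 33 of the 44 were higher and 0 lower, against 15.4% higher and 21.0% lower of all genes. The median difference was 0.40 on the log2 scale (Dll4-Fc minus untreated), against -0.01 over all genes, and 9 of the 44 were at least 2-fold higher, against 2.60% of all genes. The 3 Dll4-Fc arrays all lay above the 3 untreated arrays for 38 of the 44 genes, where 18.1% of all genes did so, and all below them for 1, LAMP2, where 23.5% of all genes did so. In the plot of differences by role, MITF and LIPA lie farthest to the right, and LAMP2, at -0.07, is the only gene left of 0.

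**Figure D1:**
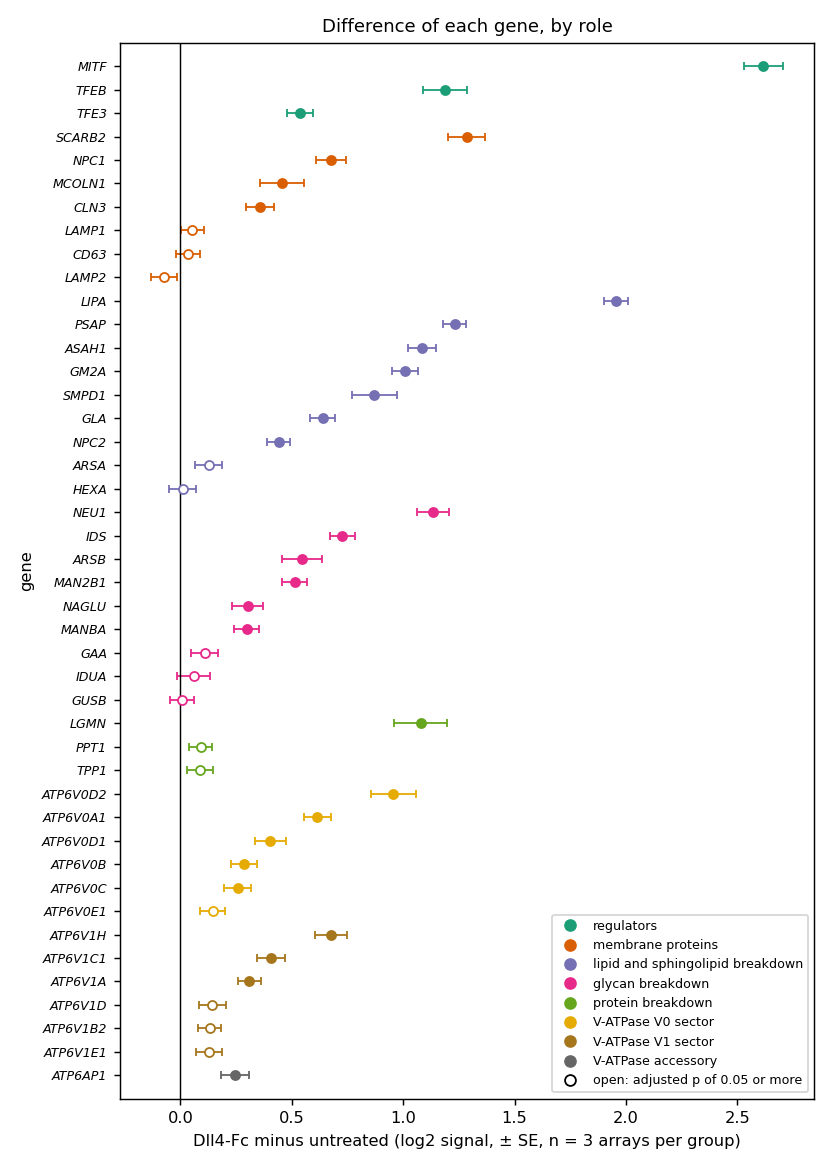
The difference in log2 signal (Dll4-Fc minus untreated, horizontal axis) of each of the 44 measured genes, coloured by role, with bars for its standard error (n = 3 arrays per group). Filled points have an adjusted p under 0.05, and the 30 filled points all lie to the right of 0, from 0.25 for ATP6AP1 to 2.62 for MITF.

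Untreated replicate 3 was the lowest untreated array for 21 of the 30 genes that rose, with a median deviation of -0.07 from the mean of its group, against -0.01 over all genes. Without it 30 genes were again higher and 0 lower, where 11.5% of all genes were higher. Of the myeloid marker list of THP1 cells, 7 of 8 genes were measured, all above the median probe set; 3 of them rose and 3 fell, and their summed intensity was 15686 to 16445 in untreated and 25345 to 26953 in Dll4-Fc arrays. LYZ alone carried this rise: the sum of the other 6 was 11902 to 12889 in untreated and 10826 to 11630 in Dll4-Fc arrays. LYZ, the macrophage enzyme lysozyme, rose by 2.00 ± 0.08 and MPO, a granule enzyme of immature myeloid cells, fell by 0.79 ± 0.11. The part of these marker changes in the lysosomal differences was not tested. Of 14 measured markers of T cells, B cells, red cells, fibroblasts and epithelium, 0 passed the test, where 11.6% of all genes were higher and 15.0% lower. Those of T cells (4 genes) and epithelium (3 genes) all lay below the median probe set. Of B cell markers 1 of 3, of fibroblast markers 1 of 3 and of red cell markers 0 of 1 lay below it. In RNA from a whole culture, a change in the share of cells of 1 kind and a change in RNA per cell cannot be told apart.

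The 3 listed transcription factors, MITF, TFEB and TFE3, all rose. MITF, best known as the master factor of pigment cells and also active in macrophages and osteoclasts, had a log2 signal of 6.97, 7.09 and 6.76 in the untreated arrays and 9.59, 9.57 and 9.50 in the Dll4-Fc arrays. The groups were far apart, and the difference of 2.62 ± 0.09 (SE), or 6.13-fold, had an adjusted p of 1.37e-06. TFEB, the factor most closely tied to lysosome formation, read 8.60, 8.59 and 8.30 in untreated arrays and 9.81, 9.67 and 9.58 with Dll4-Fc. Its untreated replicate 3 was low, but every Dll4-Fc array was above every untreated one, with a difference of 1.19 ± 0.10 (2.28-fold, adjusted p = 0.000142). TFE3, the most widely expressed relative, read 8.65, 8.70 and 8.57 without and 9.18, 9.13 and 9.22 with Dll4-Fc. It rose by 0.54 ± 0.06 (1.45-fold, adjusted p = 0.000514), again without overlap. A second MITF probe set rose by 2.48 and the second TFEB probe set by 0.70, while the dimmest MITF probe set, at 3.18 in untreated cells, differed by 0.05. With all probe sets of a gene averaged, dim ones included, MITF gave 1.72 and TFE3 gave 0.19 and did not pass (adjusted p = 0.054).

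**Figure D2:**
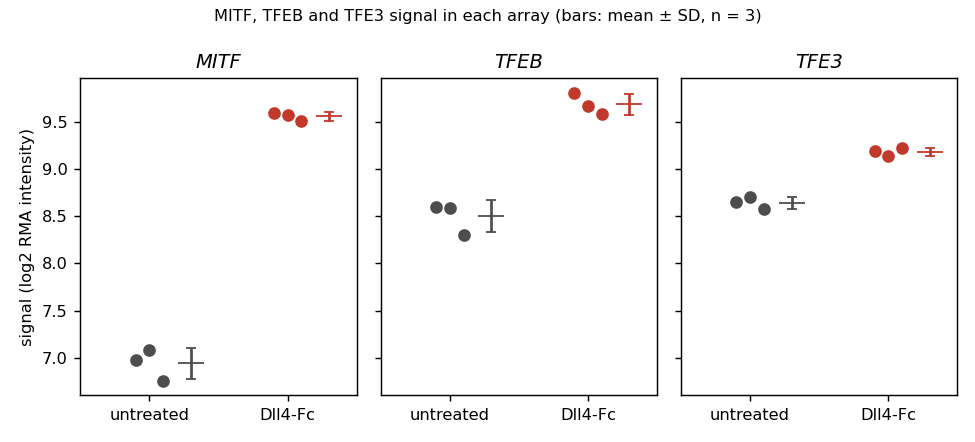
Log2 RMA intensity (vertical axis) of MITF, TFEB and TFE3 in each of the 6 arrays, with the mean and SD (n = 3) of each group beside the points. The Dll4-Fc arrays lie above all untreated arrays for each of the 3 genes, by 2.62 for MITF, 1.19 for TFEB and 0.54 for TFE3 on average.

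Because these factors bind the E-box letters CACGTG, the promoters of the genes were searched for them. RefSeq promoter windows (GRCh38.p14, 250 bases before to 50 bases after a gene's start) were held for 33 of the 47 genes, 52 windows in all. CACGTG, which reads the same on both strands, was found in windows of 9 of these 33 genes; windows of 8.77% of all 27305 genes hold it, or 7.26% of 35116 windows. The CLEAR core TCACGTGA, which contains it, was found for 5 of the 33 genes (LAMP1, MCOLN1, CLN3, GAA and ATP6V0D1) and for 1.18% of all genes (0.98% of windows). Of the 5, 3 rose, with a median of 0.36. Among the 25 measured genes whose windows lack TCACGTGA, 18 rose, with a median of 0.54. TCATGTGA, a further E-box form that was searched on both strands, was found for CD63, TPP1, PPT1 and ATP6V0C and for 1.24% of all genes (1% of windows). Of these 4, ATP6V0C rose, and their median was 0.09. Among the 26 measured genes whose windows lack TCATGTGA, 20 rose, with a median of 0.52. Of the 9 genes with CACGTG, 6 rose (NEU1, ARSB, MCOLN1, ATP6V0D1, CLN3 and ATP6V0B) and 3 did not pass (LAMP1, GAA and CD63), with a median difference of 0.36. Of 21 measured genes whose windows lack it, 15 rose, with a median of 0.54. The share of all genes on the array that rose was 11.6%. A match is a description of the letters, and genes with several windows, such as CD63 with 8, have more chances of one.

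The stretches shown carry CACGTG copies of these 9 genes (1 of the 2 of CLN3), and SCARB2, among the steepest rises, is shown as a promoter whose window holds none. They are written 5′ to 3′ on the gene's strand, with CACGTG in capitals, and end no later than the base before the start. On the plus strand lie MCOLN1 (chr19:7522544-7522623), ATP6V0B (chr1:43974880-43974939), GAA (chr17:80101481-80101580) and LAMP1 (chr13:113297029-113297238). On the minus strand lie NEU1 (chr6:31862912-31862971), ARSB (chr5:78986089-78986148), ATP6V0D1 (chr16:67481188-67481247), CLN3 (chr16:28492075-28492134), CD63 (chr12:55729160-55729219) and SCARB2 (chr4:76213825-76213944).
NEU1: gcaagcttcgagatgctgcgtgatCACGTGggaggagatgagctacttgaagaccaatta
ARSB: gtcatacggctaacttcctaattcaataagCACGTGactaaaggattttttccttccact
MCOLN1: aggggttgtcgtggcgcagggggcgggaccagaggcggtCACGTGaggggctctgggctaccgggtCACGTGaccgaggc
ATP6V0D1: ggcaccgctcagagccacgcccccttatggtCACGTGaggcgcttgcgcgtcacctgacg
CLN3: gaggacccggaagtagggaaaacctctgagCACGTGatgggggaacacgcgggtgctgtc
ATP6V0B: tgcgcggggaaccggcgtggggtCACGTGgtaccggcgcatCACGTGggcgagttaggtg
GAA: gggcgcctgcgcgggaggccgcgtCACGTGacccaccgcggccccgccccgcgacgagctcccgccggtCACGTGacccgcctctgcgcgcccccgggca
LAMP1: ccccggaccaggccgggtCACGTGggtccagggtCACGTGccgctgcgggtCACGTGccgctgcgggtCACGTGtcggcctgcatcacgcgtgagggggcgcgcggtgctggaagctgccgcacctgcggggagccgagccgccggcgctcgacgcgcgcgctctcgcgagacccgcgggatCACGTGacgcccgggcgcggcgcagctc
CD63: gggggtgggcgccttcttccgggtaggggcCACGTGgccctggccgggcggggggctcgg
SCARB2: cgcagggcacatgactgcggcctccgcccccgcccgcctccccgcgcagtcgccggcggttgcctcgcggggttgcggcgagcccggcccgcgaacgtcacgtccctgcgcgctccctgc
LAMP1, with 6 copies in its window (5 of them in the stretch shown), has the most of the 30 measured genes with a window, and its signal differed by 0.05. GAA, with 2 copies, differed by 0.11. MCOLN1, CLN3 and ATP6V0B, also with 2, rose by 0.46, 0.36 and 0.29, and NEU1, with 1, by 1.13. The plot of E-box copies shows these genes beside LIPA, SCARB2 and TFEB, which rose steeply and whose windows hold no copy. GUSB, IDUA, TPP1, PPT1, ATP6V1D and ATP6V1E1 have no copy either and did not pass. A link between copies and difference was not tested.

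**Figure D3:**
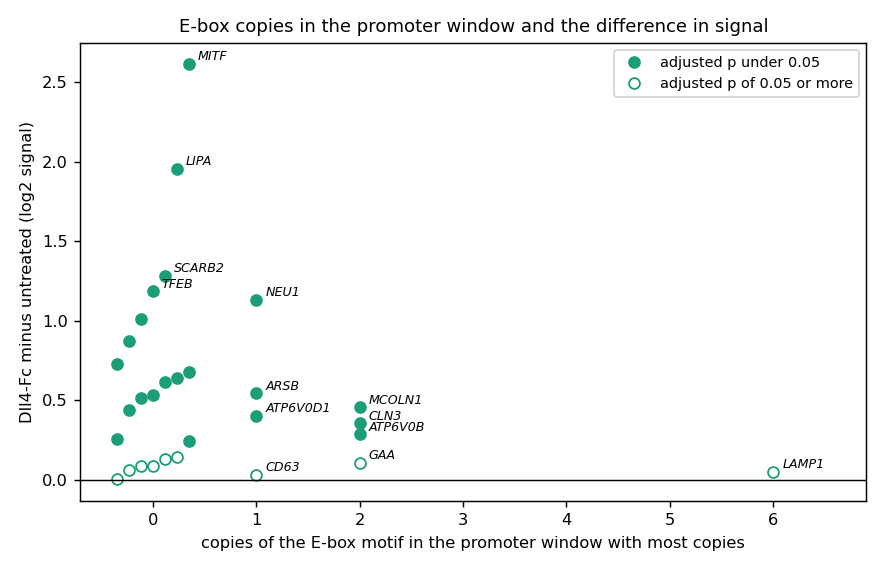
The difference in log2 signal (Dll4-Fc minus untreated, vertical axis) of the 30 measured genes with a promoter window, against the copies of CACGTG in the window with most copies (horizontal axis; points at 0 copies are spread sideways). Filled points have an adjusted p under 0.05: 6 of the 9 genes with copies and 15 of the 21 without. LAMP1, with 6 copies, lies at 0.05, and the genes with copies reach no higher than 1.13 (NEU1).

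The membrane proteins of the lysosome split: SCARB2, the cholesterol exporter NPC1, MCOLN1 and CLN3 rose, while LAMP1, LAMP2 and CD63 did not pass. Of 7 measured, 4 rose and 0 fell, with a median of 0.36, where 11.6% of all genes rose and 15.0% fell. SCARB2 (LIMP-2), which carries glucocerebrosidase to the lysosome, read 10.89, 10.91 and 10.72 in untreated arrays and 12.17, 12.22 and 12.00 with Dll4-Fc, a rise of 1.28 ± 0.08 (2.44-fold, adjusted p = 3.62e-05). All 4 of its probe sets rose, by 0.54 to 1.59. NPC1, which exports cholesterol from the lysosome, read 8.92, 8.92 and 8.77 against 9.53, 9.62 and 9.49. Its rise of 0.68 ± 0.07 (1.60-fold, adjusted p = 0.000322) was 0.24 with its 3 dim probe sets averaged in. MCOLN1, the calcium channel TRPML1, read 7.12, 7.29 and 6.89 in untreated arrays and 7.54, 7.55 and 7.59 with Dll4-Fc. The untreated arrays scattered more than the treated ones, but the groups did not overlap (0.46 ± 0.10, adjusted p = 0.0124). CLN3, mutated in juvenile neuronal ceroid lipofuscinosis, read 7.60, 7.64 and 7.73 against 7.94, 8.07 and 8.02, and rose by 0.36 ± 0.06 (adjusted p = 0.00484) with both of its probe sets.

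LAMP1 and LAMP2, heavily glycosylated proteins that line the lysosomal membrane, and the tetraspanin CD63 were the members of this group that did not pass. LAMP1, shown by array after its values were seen, read 12.75, 12.74 and 12.73 in untreated and 12.74, 12.81 and 12.83 in Dll4-Fc arrays, and limma's 95% interval of its difference ran from -0.07 to 0.17. The interval of LAMP2 ran from -0.21 to 0.06 and that of CD63 from -0.09 to 0.16. A rise as large as that of CLN3 therefore lay outside all 3 intervals. None of the 4 probe sets of LAMP1 and the 4 of LAMP2 passed; of LAMP2, whose transcript has alternative ends, they ranged from -0.07 to 0.19.

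Among proteins of lipid breakdown LIPA, PSAP, ASAH1 and GM2A rose at least 2-fold. Of 9 measured, 7 rose and 0 fell, 4 of them at least 2-fold, with a median of 0.87. The shares of all genes were 11.6% higher, 2.60% at least 2-fold higher and 15.0% lower. LIPA, the acid lipase that frees cholesterol and fatty acids from lipoproteins, read 11.35, 11.34 and 11.29 in untreated arrays and 13.27, 13.33 and 13.25 with Dll4-Fc. The arrays of each group lay close together, and the rise of 1.95 ± 0.05 was 3.88-fold (adjusted p = 5.18e-07). Averaged with a dim second probe set it was 1.12. PSAP, the precursor of the saposins that hand sphingolipids to their enzymes, read 11.60, 11.64 and 11.59 against 12.85, 12.87 and 12.81, a rise of 1.23 ± 0.05 (2.35-fold, adjusted p = 4.09e-06). Its other probe set rose by 1.39.

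ASAH1, acid ceramidase, read 11.96, 11.98 and 11.88 in untreated arrays and 13.02, 13.11 and 12.95 with Dll4-Fc. Its rise of 1.09 ± 0.06 (2.12-fold, adjusted p = 2.31e-05) was seen in 3 of 5 probe sets. The brightest probe set not named as shared (_s_at or _x_at), at 11.02, differed by 0.08 (adjusted p = 0.46 where shared probe sets were left out). A dimmer one, at 10.09, rose by 1.47. GM2A, the activator that presents ganglioside GM2 to hexosaminidase A, read 9.93, 9.79 and 9.80 against 10.82, 10.88 and 10.84, a rise of 1.01 ± 0.06 (2.01-fold, adjusted p = 2.58e-05), and 6 of its 7 probe sets rose. With all of them averaged its difference was 0.63. HEXA, the alpha subunit of the enzyme that GM2A serves, differed by 0.01 ± 0.06 with an interval from -0.13 to 0.15.

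The other lipid genes that rose were SMPD1, acid sphingomyelinase (0.87 ± 0.10), GLA, alpha-galactosidase A (0.64 ± 0.06), and NPC2, the soluble partner of NPC1 in cholesterol export (0.44 ± 0.05). SMPD1 did not pass without shared probe sets (0.23, adjusted p = 0.0634). ARSA, which desulphates sulphatide, differed by 0.13 ± 0.06 (adjusted p = 0.187), and passed with cyclic loess (0.18, adjusted p = 0.0469).

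Among enzymes of glycan breakdown NEU1 had the largest rise. Of 9 measured, 6 rose and 0 fell, 1 of them at least 2-fold, with a median of 0.30. The shares of all genes were 11.6% higher, 2.60% at least 2-fold higher and 15.0% lower. NEU1, the sialidase that removes terminal sialic acid, read 9.16, 9.13 and 8.98 in untreated arrays and 10.19, 10.32 and 10.16 with Dll4-Fc. No array of one group reached the other (1.13 ± 0.07, 2.19-fold, adjusted p = 3.85e-05). IDS, which takes sulphate off dermatan and heparan sulphate, read 9.82, 9.81 and 9.71 against 10.48, 10.50 and 10.54, a rise of 0.73 ± 0.06 (1.65-fold, adjusted p = 9.27e-05) that was 0.42 over its 10 probe sets. The genome holds a closely similar IDS pseudogene, so its probe sets may read both.

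ARSB, arylsulphatase B, read 9.09, 9.12 and 8.90 without and 9.70, 9.44 and 9.59 with Dll4-Fc. The rise of 0.55 ± 0.09 (1.46-fold, adjusted p = 0.00388) rests on 1 of its 4 probe sets, named _x_at, which may also read unrelated sequences. Without shared probe sets the value was -0.15 (adjusted p = 0.274), and 0.16 (adjusted p = 0.136) with all averaged. MAN2B1, lysosomal alpha-mannosidase, read 10.24, 10.26 and 10.16 against 10.70, 10.73 and 10.76, and rose by 0.51 ± 0.05 (1.43-fold, adjusted p = 0.000479). MANBA, beta-mannosidase, rose by 0.30 ± 0.05 and NAGLU, a step of heparan sulphate breakdown, by 0.30 ± 0.07 (adjusted p = 0.0152). NAGLU did not pass without untreated replicate 2 (0.0598) or Dll4-Fc replicate 1 (0.0654), and gave 0.02 (adjusted p = 0.893) without shared probe sets and 0.16 (0.109) with all averaged.

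GAA, which releases glucose from glycogen, differed by 0.11 ± 0.06 (adjusted p = 0.241) and passed with cyclic loess (0.17, adjusted p = 0.0423). IDUA, alpha-L-iduronidase, differed by 0.06 ± 0.07, and GUSB, beta-glucuronidase and a common reference gene of expression studies, by 0.01 ± 0.05 with an interval from -0.12 to 0.13. Of the 3 proteins that act on other proteins, LGMN, the asparagine-specific protease legumain, rose and the others did not pass. The median of the 3 was 0.09, where 11.6% of all genes rose and 15.0% fell. LGMN read 4.84, 5.13 and 4.88 in untreated arrays and 6.22, 5.82 and 6.05 with Dll4-Fc (1.08 ± 0.12, 2.11-fold, adjusted p = 0.000573). Its untreated signal lay below the median probe set of 5.70, so the size of its fold is uncertain. TPP1, a tripeptide-cutting peptidase, and PPT1, which removes fatty acids from proteins, each differed by 0.09, with standard errors of 0.06 and 0.05. PPT1 passed with a trended robust prior (adjusted p = 0.00476).

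**Figure D4:**
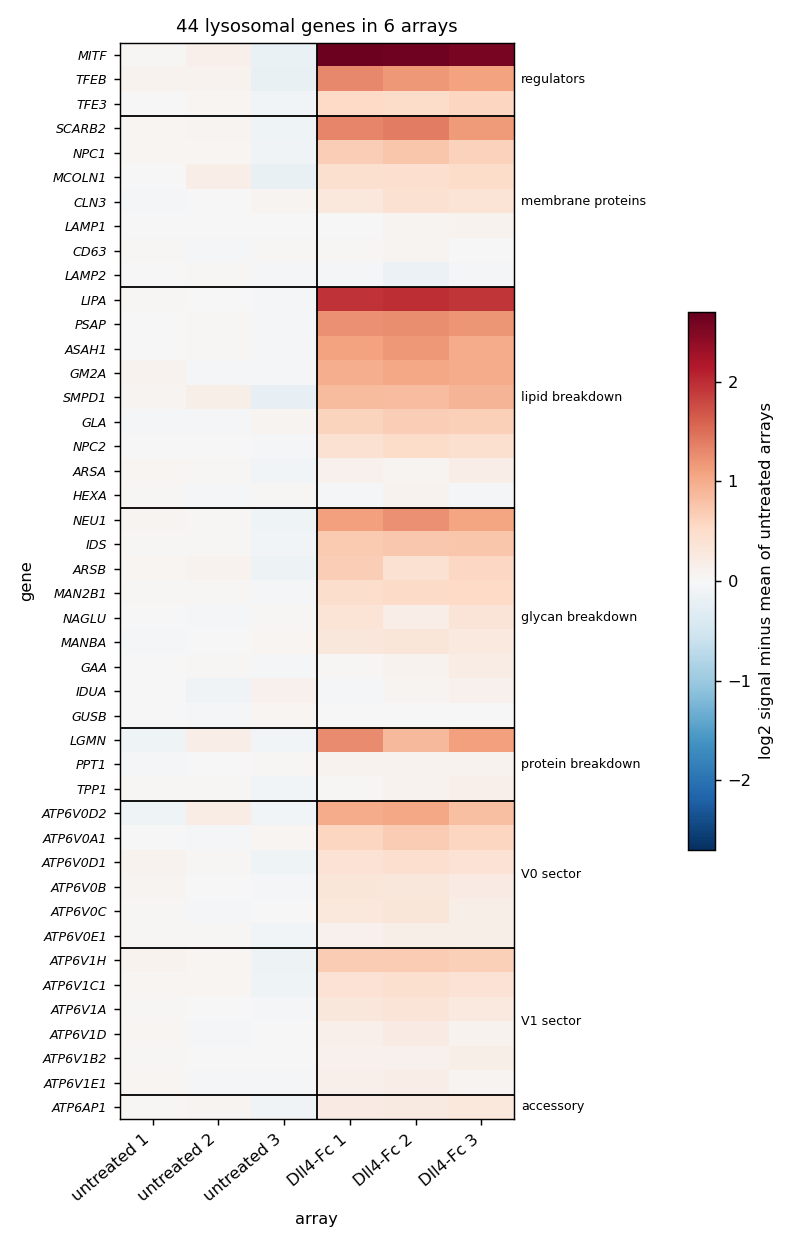
Log2 signal of the 44 measured genes (rows, ordered by role and by difference) in the 6 arrays (columns), each minus the mean of the gene's 3 untreated arrays; red is higher and blue lower. The Dll4-Fc columns are red for the regulators and most lipid enzymes, reaching a mean of 2.62 for MITF, and nearly white for LAMP1, CD63, HEXA and GUSB, whose means lie at 0.05 or less.

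Most measured subunits of the proton pump rose, and none reached 2-fold. Of 13 measured V-ATPase genes 9 rose and 0 fell, with a median of 0.29 and values from 0.13 to 0.96. Of all genes, 11.6% rose and 15.0% fell. All 13 had every Dll4-Fc array above every untreated one, as did 18.1% of all genes. In the V0 sector 5 of 6 rose. ATP6V0D2, a d subunit typical of osteoclasts and macrophages, read 5.65, 5.96 and 5.68 in untreated arrays, near the median probe set, and 6.78, 6.81 and 6.58 with Dll4-Fc. It rose by 0.96 ± 0.10 (1.94-fold, adjusted p = 0.000445), and its other probe sets rose by 0.92 and 0.78.

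ATP6V0D1, the d subunit found in most tissues, read 11.39, 11.35 and 11.18 against 11.69, 11.75 and 11.69, a rise of 0.40 ± 0.07 (1.32-fold, adjusted p = 0.00458). The difference of ATP6V0D2 exceeded that of ATP6V0D1 by 0.55, with an exact 2-sided permutation p of 0.1 over within-array values. This is the smallest p that 3 arrays against 3 can give, so the test could not pass, and RMA shrinks differences at a signal as dim as that of ATP6V0D2. ATP6V0A1, a subunit of the proton channel, read 7.83, 7.79 and 7.89 against 8.41, 8.53 and 8.42 (0.61 ± 0.06, adjusted p = 0.000304), and gave 0.39 with its second, dimmer probe set averaged in. ATP6V0B, a subunit of the rotating ring, read 12.73, 12.65 and 12.61 against 12.99, 12.97 and 12.89 (0.29 ± 0.06, adjusted p = 0.0101). ATP6V0C, the main ring subunit, rose by 0.26 ± 0.06 (adjusted p = 0.0183), but not past the threshold when untreated replicate 2 (0.0704) or the first or second Dll4-Fc array (0.0746 and 0.0721) was left out. ATP6V0E1, a small membrane subunit, differed by 0.14 ± 0.06 (adjusted p = 0.103). It passed without dim genes (0.0499), with cyclic loess (0.0435) and with a trended robust prior (0.00336). With its 7 probe sets averaged it gave 0.03 (adjusted p = 0.788), and 0.11 (0.24) without shared ones. The 7 probe sets ranged from -0.17 to 0.14, and none passed.

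In the V1 sector 3 of 6 rose, with a median of 0.23, where 11.6% of all genes rose. ATP6V1H, which regulates the ATPase activity, read 9.88, 9.82 and 9.64 in untreated arrays and 10.46, 10.47 and 10.43 with Dll4-Fc (0.68 ± 0.07, 1.60-fold, adjusted p = 0.000523). Its unshared probe set, at 4.51 in untreated cells, gave 0.46 (adjusted p = 0.0536). ATP6V1C1, a stalk subunit that joins the sectors, read 9.91, 9.91 and 9.75 against 10.25, 10.29 and 10.25 (0.41 ± 0.06, adjusted p = 0.00303), and gave 0.18 (adjusted p = 0.0625) over its 4 probe sets. ATP6V1A, the catalytic subunit, read 11.72, 11.69 and 11.67 against 12.00, 12.04 and 11.97 (0.31 ± 0.05, adjusted p = 0.00402). ATP6V1D, ATP6V1B2 and ATP6V1E1 differed by 0.14, 0.13 and 0.13 and did not pass, though all 3 passed with a trended robust prior (adjusted p = 0.0373, 0.00461 and 0.032). ATP6V1B2 also passed without dim genes (0.0435) and with cyclic loess (0.033). The 4 probe sets of ATP6V1D ranged from -0.17 to 0.21, and none passed. The accessory subunit ATP6AP1, which helps to assemble the pump, read 11.02, 11.04 and 10.88 against 11.20, 11.22 and 11.26. It rose by 0.25 ± 0.06 (adjusted p = 0.0245), a call lost without any of the Dll4-Fc arrays (0.0668, 0.072 and 0.071) and with median centring (0.0579).

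Other genes of the organelle, taken from lists outside the 47, are read beside the 11.6% of all genes that were higher and the 15.0% that were lower. Of 19 further hydrolases measured, 9 (47.4%) rose and 2 (10.5%) fell, with a median of 0.21. DNASE2, which digests DNA in the lysosome, rose 5.63-fold (2.49 ± 0.05), SGSH, a heparan sulphamidase, 2.74-fold (1.46 ± 0.09), FUCA1, a fucosidase, 2.21-fold (1.14 ± 0.10) and ACP2, an acid phosphatase, 1.55-fold (0.63 ± 0.06). PCYOX1, which degrades prenylcysteine, and CTBS, chitobiase, fell by 0.47 and 0.41. Of 24 further membrane proteins, 9 (37.5%) rose and 2 (8.33%) fell, with a median of 0.19. GPNMB, a glycoprotein of macrophage lysosomes and melanosomes, rose 13.9-fold (3.80 ± 0.07), the histidine and peptide transporter SLC15A3 by 1.67 ± 0.07, LAMP3 by 1.58 ± 0.19 and CD164 by 0.47 ± 0.05. The untreated signal of LAMP3, 4.46, lay below the median probe set, so the size of its fold is uncertain too. TMEM106B and LAPTM4B fell by 0.36 and 0.23.

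The V-ATPase subunits outside the list include several typical of single tissues, but 7 of the 10 measured lay above the median probe set. Of 10 measured, 3 rose (ATP6AP2 by 0.59, ATP6V1C2 by 0.55 and TCIRG1 by 0.40) and 1 fell, ATP6V0E2, by 0.26, and the median was -0.01. Of the 15 cathepsins, the main lysosomal proteases, 8 rose and 1 fell; CTSL rose by 2.40, CTSH by 1.84, CTSD by 1.57 and CTSB by 1.48, and the azurophil granule protease CTSG was 2.83-fold lower. Of 10 genes that sort hydrolases to the lysosome, 4 rose and 2 fell. GNPTAB, which begins the mannose 6-phosphate tag, rose by 0.70, SORL1 by 0.46, and the receptors of the tag, M6PR and IGF2R, by 0.44 and 0.27; GNPTG and GGA2 fell by 0.23 and 0.18.

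Of 24 autophagy genes 9 (37.5%) rose and 4 (16.7%) fell, with a median of 0.00. WIPI1, a lipid-binding protein of early autophagosomes, rose by 1.93 ± 0.12 (3.81-fold), ATG7 by 0.57, ATG16L1 by 0.51 and OPTN by 0.44. UVRAG, RB1CC1, WIPI2 and ATG2A fell by 0.47, 0.36, 0.20 and 0.19. Genes of nutrient sensing on the lysosomal surface can control the cytosolic retention of TFEB and its relatives. Of 17 such genes 2 rose and 0 fell, with a median of -0.01. They were FNIP2, a partner of folliculin (0.78 ± 0.10), and LAMTOR3, a subunit of the Ragulator complex (0.28 ± 0.07); at an unadjusted p under 0.05, limma gave 1 as lower. Differences between these lists were not tested, and the plot of shares sets the lists side by side.

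**Figure D5:**
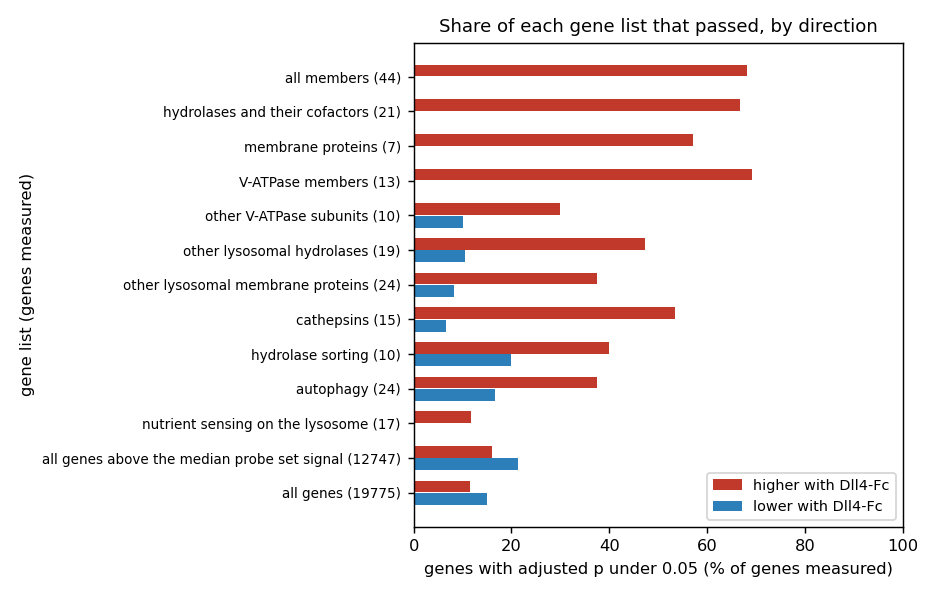
The percent of measured genes of each list with an adjusted p under 0.05 in the limma fit (horizontal axis), higher (red) or lower (blue) with Dll4-Fc; the number measured stands in brackets. The 44 genes reach 68.2% higher and 0% lower, against 11.6% and 15.0% of all genes, and the nutrient sensing list 11.8% and 0%.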

How the data were processed

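Per the labels' protocols, 5 ng of total RNA per sample was amplified (NuGEN Ovation) and labelled with biotin. The values deposited by the authors are linear intensities of 54675 probe sets, computed with RMA per the submitters' processing notes, which give no version. RMA aligns the quantiles of the arrays and shrinks differences of dim probe sets, and a general change in RNA amount would be removed. Array medians lay between 50.6 and 52.7, and 6 arrays limit the precision (median standard error of a difference 0.075).

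Here intensities were log2 transformed. The platform annotation gave 1 symbol for 41097 probe sets, several for 1801 and none for 11777; the 44 genes matched current RefSeq symbols. The 2 groups entered a linear model on all 19775 genes (limma 3.58.1, R 4.3.3, eBayes, 2-sided, 4 residual degrees of freedom), without a replicate block; ± is a standard error unless an SD is named. The procedure was tested on simulated data. The genes, lists and tests were chosen with earlier results of these data known. All 47 genes could be named, with array values for the 4 largest passing differences of each role, and up to 4 passing genes per direction of each other list. ATP6V0D2 against ATP6V0D1 was compared by an exact permutation test. Alternatives were a replicate block, the mean of all probe sets, leaving out shared probe sets, leaving out dim genes and cyclic loess. Others were median centring, a trended robust prior, array weights and leaving out each array. Shared probe sets are those with names ending in _s_at or _x_at, and the _x_at ones may also read unrelated sequences.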

Additional observations from a re-analysis of the deposited data

How the results depend on the processing

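Of the 44 genes (43 without dim genes) 26 to 35 were higher and 0 lower under 13 of the 14 alternatives. The share of all genes that were higher ran from 9.04% (without Dll4-Fc replicate 1) to 18.2% (without dim genes) under these 13. Leaving out 1 array gave 27 to 30 of the 44, and 9.04% to 11.5% of all genes. Without shared probe sets 37 genes were measured, of which 19 were higher and 0 lower, where 9.35% of all genes were higher. Of the 30 that rose, 6 have only shared probe sets and could not be called. Of the 24 still measured, 19 were higher, and ARSB, ASAH1, ATP6V1H, NAGLU and SMPD1 did not pass. Of the 30, 21 passed under every alternative that measured them. The exceptions were TFE3, ASAH1, SMPD1, NAGLU, ARSB, ATP6V0C, ATP6V1C1, ATP6V1H and ATP6AP1. Averaging all probe sets moved 11 of the 30 by more than 1.5 times. Signs turned for small values: LAMP2 gave 0.059 with the mean of probe sets, HEXA ran from -0.030 to 0.035 and GUSB from -0.017 to 0.036 when 1 array was left out, and GUSB gave -0.0044 with median centring. ARSB gave -0.15 without shared probe sets; the cause was not tested. The excess of ATP6V0D2 over ATP6V0D1 was 0.48 to 0.63 and 0.45 without untreated replicate 1. Cyclic loess moved the median of all genes to 0.01 and median centring to -0.02. Samples of the same number share only the number (correlations of their deviations 0.015, -0.21 and -0.15); with the replicate block 28 genes were higher and 0 lower, and ATP6AP1 and ATP6V0C did not pass. Dim probe sets (LGMN, ATP6V0D2, LAMP3) limit the size of their folds.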
